A study of Mus musculus with 2 samples.

Results

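The transcripts described here are 36 genes that mark blood-derived cells in tissue, chosen by gene name on the array: 19 expressed mainly by macrophages, 4 of class II antigen presentation, 4 of the antigen receptor complexes of T and B cells, 2 of neutrophils, 1 of mast cells and 6 shared by leukocytes at large. They are 36 of 30011 gene and transcript names on the array, and 35 of them could be measured. The samples were 2 RNAs of Rbpj-cKO ureters and 2 of control ureters, all of NMRI mice at postnatal day 4. The Rbpj-cKO mice carried Tbx18(cre/+);Rbpj(fx/fx), and the controls Tbx18(+/+);Rbpj(fx/n.d.), with 1 floxed Rbpj allele and another whose state was not determined, so the genotypes also differed in the Tbx18 allele that holds cre. Tbx18, whose locus drives the cre, is expressed in the mesenchyme around the ureteric epithelium, and is no marker of blood cells. Array 1 set Rbpj-cKO 1 (red dye) against control 1 (green dye), both labelled female. Array 2 set Rbpj-cKO 2 (green dye) against control 2 (red dye), both labelled male. The sources used here do not say how many animals gave each RNA or whether animals were pooled. The p-values therefore cannot be said to measure a spread between animals. They rest on the spread between these 2 pairs and, through limma, on that of all genes tested.

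RBPJ is the DNA-binding protein that turns Notch signals into transcription, and ureters without it in the Tbx18 lineage raise the question of which resident cells change along with the mesenchyme. Macrophages settle in most organs before birth, depend on the receptor CSF1R, take up dying cells and tag them with complement C1q. Class II molecules display peptides to helper T cells and are held by macrophages, dendritic cells and B cells. Neutrophils and mast cells are granule-bearing cells. The calcium-binding proteins S100A8 and S100A9 are abundant in neutrophils, and the protease carboxypeptidase A3 is stored in the granules of mast cells. In RNA of whole ureters, fewer cells of a type and less RNA per cell cannot be told apart.

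Each value comes from a 60-base probe printed in 4 spots. The probes that read complement C1q chains A and B, the IgG receptor Fcgr3, lysozyme and S100a8 are shown as examples of the macrophage and neutrophil genes below. Each holds a reading frame free of stop codons, and positions are those of the files (mm9). They lie at chr4:136452409-136452468 (C1qa, minus strand), chr4:136436578-136436637 (C1qb, minus), chr1:172984129-172984188 (Fcgr3, minus), chr10:116719175-116719234 (Lyz2, minus) and chr3:90473778-90473837 (S100a8, plus).
C1qa: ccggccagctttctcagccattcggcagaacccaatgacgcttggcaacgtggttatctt
C1qb: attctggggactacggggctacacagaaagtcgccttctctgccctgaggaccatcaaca
Fcgr3: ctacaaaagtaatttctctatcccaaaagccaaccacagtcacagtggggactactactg
Lyz2: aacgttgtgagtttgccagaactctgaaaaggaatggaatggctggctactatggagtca
S100a8: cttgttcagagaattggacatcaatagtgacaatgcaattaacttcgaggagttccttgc

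Facts of the whole series bear on these genes in 4 ways. Rbpj itself had log2 levels of 12.78 and 12.64 in Rbpj-cKO 1 and 2, against 13.69 and 13.74 in control 1 and 2, a mean log2 ratio of -1.01 ± 0.13 (SD, n = 2; adjusted p = 0.0875 in limma), but it is not known here whether the floxed part holds its probe. On array 1, labelled female in both channels, the Y-linked Ddx3y stood at 11.31 in the RNA labelled Rbpj-cKO 1 and 7.08 in control 1. Eif2s3y, also Y-linked, stood at 11.97 and 7.70. On array 2, labelled male, Ddx3y stood at 12.92 in Rbpj-cKO 2 and 13.46 in control 2, and Eif2s3y at 14.06 and 14.25. Rbpj-cKO 1 thus lay between control 1 and the RNAs labelled male, and the reason was not tested. Every direction on array 1 rests on an Rbpj-cKO RNA that Y-linked transcripts set apart from its sex label. The median log2 level of 14 liver markers was 9.39 and 8.87 in Rbpj-cKO 1 and 2, against 9.28 in control 1 and 11.55 in control 2. The median log2 level of 13 adipocyte markers was 12.21 and 11.69 in Rbpj-cKO 1 and 2, against 16.07 and 13.66 in controls 1 and 2. The share of the arrays' spots well above background was between 71.8% and 74.0%, and the median SD among the spots of a probe was 0.05 and 0.06 on the log2 scale. The number of arrays limits the precision.

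Leukocyte transcripts were present in every RNA. Of the 36 genes, 34 were well above background in both RNAs of both genotypes. Cd3g, a chain of the T cell receptor complex, was so in control on 1 of 2 arrays, and Fcgr1, the high-affinity IgG receptor, on 1 of 2 arrays in each genotype, which left Fcgr1 out of the fit. Some further markers of each cell type were too dim to pass the filter. These were 6 of 12 natural killer and innate lymphoid genes (Klrb1c, Klrd1, Klrk1, Ncr1, Gzmb and Eomes), 4 of 14 T cell genes (Cd3d, Cd8a, Cd8b1 and Il7r) and 4 of 12 B cell genes (Pax5, Blk, Fcrla and Igll1). They were also 7 of 14 mast cell, basophil and eosinophil genes, among them the IgE receptor chains Fcer1a and Ms4a2, and 5 of 18 class II and dendritic cell genes, among them Clec9a and Xcr1. Of the neutrophil markers Cxcr2 and Itgb2l, and of the macrophage markers Timd4 and Vsig4, did not pass either.

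Between Rbpj-cKO and control ureters no member was called. In limma 0 of 35 members passed an adjusted p of 0.05, where 0.00473% of 21150 genes did. At an unadjusted p under 0.05, Irf8 was higher (1 member; 6.99% of all genes) and 0 members were lower (7.02% of all genes), and with trend and robust settings limma also called 0 members. No member was at least 1.5-fold higher on both arrays (0.402% of all genes) or at least 1.5-fold lower on both (0.794%). The 95% interval of the mean log2 ratio takes its width from both arrays and, in limma, from the spread of all genes tested. It lay within a 1.5-fold change either way for 30 of the 35 members. The share over all genes was not computed, so this count cannot be read as particular to the members. Resting on 2 ratios per gene, the interval does not measure a spread between animals and does not show these 30 to be unchanged. It reached beyond 1.5-fold for the other 5, H2-Ab1 (-0.25 to 0.66), Msr1 (-0.16 to 0.60), S100a8 (-0.45 to 0.85), S100a9 (-0.47 to 0.79) and Cpa3 (-0.75 to 0.97). The 2 Rbpj-cKO RNAs lay above both controls for 2 members, Irf8 and Cd14 (22.3% of all genes), and below both for 3, C1qa, C1qc and Laptm5 (20.8% of all genes). For the other 30 the genotypes overlapped.

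**Figure D1:**
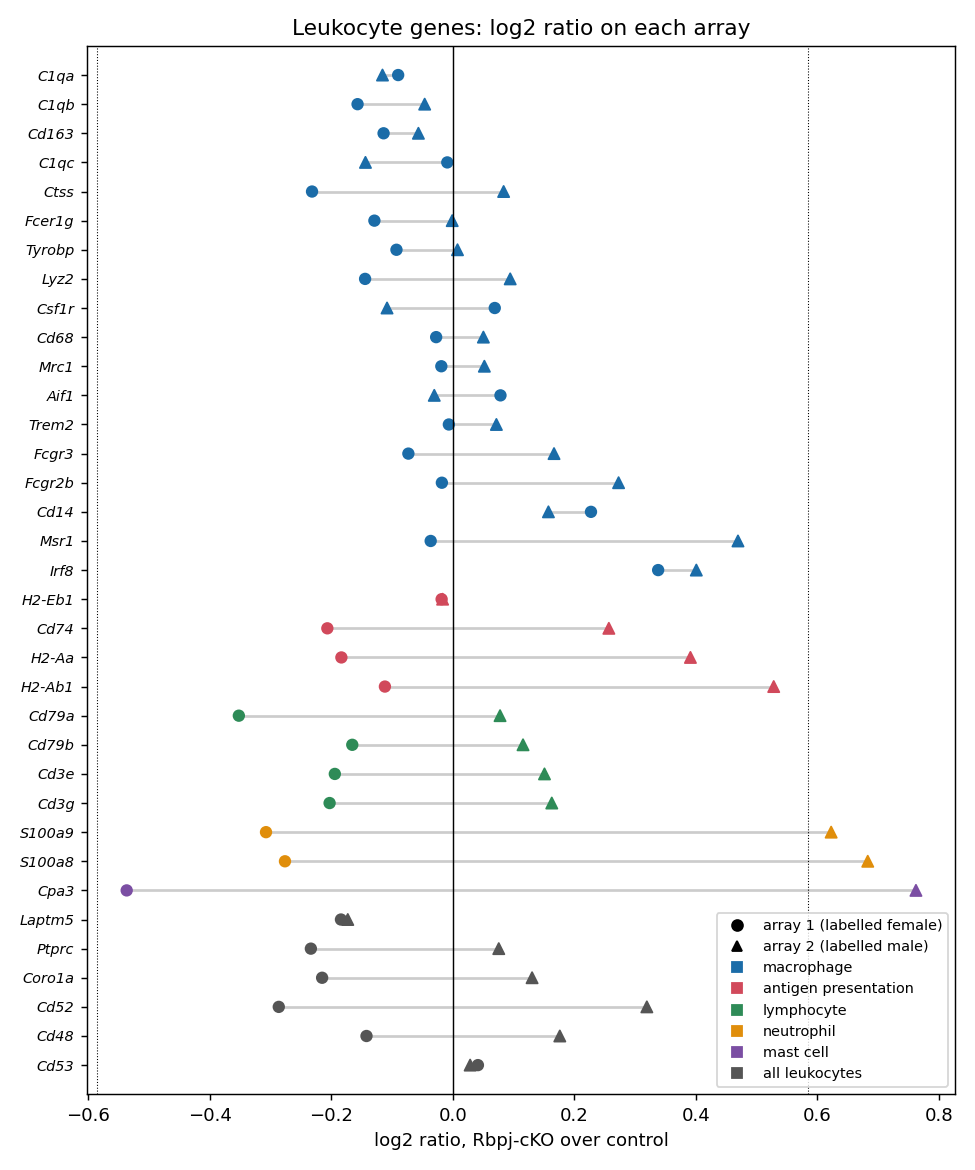
Log2 ratios of Rbpj-cKO over control for the 35 measured genes, grouped by cell class, with array 1 as circles and array 2 as triangles. Most circles lie below 0 and most triangles above it, and the widest pair is Cpa3 (-0.54 and 0.76); dotted lines mark 1.5-fold either way (0.585 on the log2 scale).

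For most of these genes the direction of the ratio differed between the arrays. On array 1, 30 of 35 members were lower in Rbpj-cKO (52.1% of all genes), and on array 2, 26 of 35 were higher (54.1% of all genes). The 2 signs were opposite for 25 members (38.5% of all genes). Of these, 23 were lower on array 1 and higher on array 2, or 65.7%, against 22.3% of all genes, while 2 (Csf1r and Aif1) went the other way round (16.1% of all genes). Members of the same sign on both arrays were 3 higher (Irf8, Cd14 and Cd53; 31.8% of all genes) and 7 lower (C1qa, C1qb, C1qc, Cd163, Fcer1g, Laptm5 and H2-Eb1; 29.8% of all genes). Of these 7, Fcer1g had -0.00 on array 2 and other signs under 4 of 12 alternative settings, and C1qc and H2-Eb1 had other signs under 2 each. Cd53 had other signs under 1. From the scanner's own log ratio and from the authors' deposited table, 9 members were higher and 4 lower on both arrays. Over all genes the shares moved the same way, to 37.9% higher and 26.8% lower with the scanner's log ratio, and to 38.7% and 23.0% with the authors' deposited table. Over the members the median ratio was -0.13 (array 1) and 0.09 (array 2), beside -0.01 and 0.01 over all genes tested. The members are transcripts of few cell types in the same 4 RNAs, so they are not independent of each other. Sex label, dye and pair changed together between the arrays and cannot be told apart.

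The levels show which RNAs this rests on. Control 1 stood above control 2 for 30 of 35 members (50.5% of all genes), and Rbpj-cKO 2 above Rbpj-cKO 1 for 21 (58.9% of all genes). The 2 Rbpj-cKO RNAs differed by a median of 0.09 on the log2 scale, and the 2 control RNAs by 0.19. Over all genes these gaps were 0.09 and 0.10. The controls were the wider pair for 28 of 35 members (80.0%), against 52.9% of all genes. Controls 1 and 2 also differed in markers of other tissues. Of 14 measured liver markers 11 were higher in Rbpj-cKO on array 1 and lower on array 2, which is the reverse of the member pattern, and Apob and Fga were too dim to measure. All 13 adipocyte markers were lower in Rbpj-cKO on both arrays, with medians of -2.74 and -1.06. Their part in the result was not tested. The base composition of the probes was alike, with a median of 43.3% G and C for the 23 members that were lower on array 1 and higher on array 2 and 45.0% for the other 12.

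**Figure D2:**
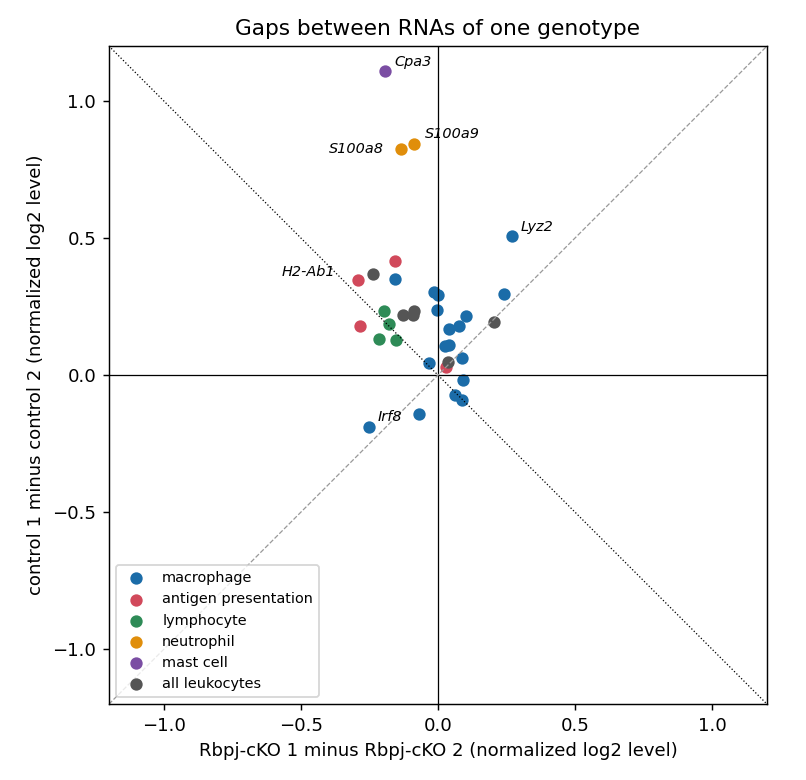
Gap between the 2 Rbpj-cKO RNAs (horizontal) and between the 2 control RNAs (vertical) for each measured gene, in normalized log2 level, coloured by class. On the dashed line both gaps are equal, and on the dotted line they are equal in size and opposite in sign; Cpa3 (1.11), S100a9 (0.84) and S100a8 (0.82) have the widest gaps between controls.

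Among macrophage genes, the transcription factor Irf8 gave the largest mean ratio. IRF8 directs the development of monocytes and dendritic cells and is also made by B cells. Its log2 level was 11.80 and 12.05 in Rbpj-cKO 1 and 2, against 11.46 and 11.65 in control 1 and 2. Both Rbpj-cKO RNAs were above both controls, and each pair differed by a like amount. The ratios of 0.34 and 0.40 (1.26-fold and 1.32-fold) averaged 0.37 ± 0.04 (SD, n = 2), with an adjusted p of 0.203 in limma. Over the 12 alternative settings the mean ran between 0.34 and 0.39, positive on both arrays in each, and the smallest adjusted p was 0.137. Cd14, the lipopolysaccharide co-receptor of monocytes and macrophages, stood at 12.32 and 12.39 in Rbpj-cKO RNAs and at 12.09 and 12.23 in controls. Its groups did not overlap either, although the lower Rbpj-cKO RNA was within 0.1 of the higher control, and the mean ratio was 0.19 ± 0.05 (adjusted p = 0.368 in limma).

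The 3 chains of complement C1q, which macrophages secrete and which share a gene cluster on chromosome 4, were each lower on both arrays by small amounts. C1qa stood at 10.50 and 10.41 in Rbpj-cKO RNAs and at 10.59 and 10.53 in controls, with ratios of -0.09 and -0.12 (adjusted p = 0.615 in limma). C1qb had 10.54 and 10.43 in Rbpj-cKO RNAs and 10.69 and 10.48 in controls, so its groups overlapped, with ratios of -0.16 and -0.05. C1qc had 12.51 and 12.45 in Rbpj-cKO RNAs and 12.52 and 12.59 in controls, with ratios of -0.01 and -0.14. None of the 3 passed the test, and C1qc was higher on 1 array by the scanner's log ratio and by the authors' deposited table. Cd163, the haemoglobin scavenger receptor of tissue macrophages, gave -0.11 and -0.06.

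The genes that define macrophages most broadly lay near 0. Csf1r, the receptor on which macrophage survival depends, had log2 levels of 12.92 and 12.83 in Rbpj-cKO RNAs and 12.85 and 12.94 in controls, which overlap, with ratios of 0.07 and -0.11. Its 2 dimmer probes gave -0.01 and -0.05, and 0.13 and -0.03. The lysosomal protein Cd68 gave -0.03 and 0.05, the mannose receptor Mrc1 -0.02 and 0.05, the lipid-sensing receptor Trem2 -0.01 and 0.07, and the calcium-binding protein Aif1 0.08 and -0.03. The signalling adaptors Tyrobp and Fcer1g gave -0.09 and 0.01, and -0.13 and -0.00. Lysozyme 2 (Lyz2), an enzyme of macrophages and neutrophils, stood at 11.31 and 11.04 in Rbpj-cKO RNAs and at 11.45 and 10.95 in controls, so that both RNAs of array 1 were above both of array 2 whatever the genotype. The cysteine protease Ctss, which trims the class II invariant chain, gave -0.23 and 0.08.

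A few macrophage receptors had small negative ratios on array 1 and larger positive ones on array 2. Msr1, the class A scavenger receptor, had log2 levels of 8.18 and 8.33 in Rbpj-cKO RNAs and 8.21 and 7.87 in controls, with control 2 alone low. Its ratios were -0.04 and 0.47 (adjusted p = 0.585 in limma), and a dimmer probe gave -0.03 and 0.20. The value on array 1 was within the standard error of the probe's spots (0.04), and Msr1 had other signs with the scanner's log ratio. The inhibitory IgG receptor Fcgr2b gave -0.02 and 0.27, and the activating Fcgr3 -0.07 and 0.17. For both, the Rbpj-cKO RNAs stood at the same level (8.97 for Fcgr2b and 10.46 for Fcgr3), and control 2 was the lowest RNA, at 8.70 and 10.30. Over the 18 measured macrophage genes the median ratio was -0.03 on array 1 and 0.05 on array 2.

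Class II genes were higher in Rbpj-cKO on array 2 except for H2-Eb1. Cd74, the invariant chain, had log2 levels of 7.92 and 8.20 in Rbpj-cKO RNAs and 8.13 and 7.95 in controls, with ratios of -0.21 and 0.26. H2-Aa, an alpha chain, had 7.53 and 7.68 in Rbpj-cKO RNAs and 7.71 and 7.29 in controls, with ratios of -0.18 and 0.39. H2-Ab1, its beta chain partner, had 8.31 and 8.60 in Rbpj-cKO RNAs and 8.42 and 8.08 in controls, with ratios of -0.11 and 0.53, a mean of 0.21 ± 0.45 (adjusted p = 0.671 in limma). In all 3, Rbpj-cKO 2 was above Rbpj-cKO 1, control 1 was above control 2, and the genotypes overlapped. A second H2-Ab1 probe gave -0.17 and 0.40, but the probes share 51 positions, 50 of them with the same base, and are not independent readings. H2-Eb1, the beta chain of the other class II molecule, stood between 9.39 and 9.44 in all 4 RNAs, with a ratio of -0.02 on each array. The median of the 4 genes was -0.15 on array 1 and 0.32 on array 2.

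The 4 lymphocyte genes all had opposite signs on the 2 arrays. Cd3e, a signalling chain of the T cell receptor complex, had log2 levels of 9.05 and 9.26 in Rbpj-cKO RNAs and 9.24 and 9.11 in controls, with ratios of -0.19 and 0.15. Cd3g had 6.77 and 6.95 in Rbpj-cKO RNAs and 6.97 and 6.78 in controls, with ratios of -0.20 and 0.16. For these genes the 2 RNAs of each genotype differed by about as much as the 2 genotypes of each array. Cd79a and Cd79b, the signalling chains of the B cell receptor, gave -0.35 and 0.08, and -0.17 and 0.12. The median of the 4 was -0.20 and 0.13. Adjusted p-values in limma were 0.712 or above.

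The neutrophil and mast cell genes showed the widest difference between arrays. S100a8, a calcium-binding protein of neutrophils and monocytes, had log2 levels of 11.33 and 11.47 in Rbpj-cKO RNAs and 11.61 and 10.78 in controls. Its partner S100a9, encoded beside it on chromosome 3, had 12.74 and 12.82 in Rbpj-cKO RNAs and 13.05 and 12.20 in controls. In both, control 1 was the highest and control 2 the lowest of the 4 RNAs, and the Rbpj-cKO RNAs lay between them within 0.2 of each other. The ratios of S100a8 were -0.28 and 0.68 (0.20 ± 0.68, adjusted p = 0.790 in limma), and those of S100a9 -0.31 and 0.62 (0.16 ± 0.66, adjusted p = 0.840). Cpa3, the carboxypeptidase of mast cell granules, had 10.52 and 10.71 in Rbpj-cKO RNAs and 11.06 and 9.95 in controls. This was 0.69-fold on array 1 and 1.70-fold on array 2, a mean log2 ratio of 0.11 ± 0.92 (adjusted p = 0.921 in limma). These 3 were the members that reached 1.5-fold on either array, and each kept its sign on both arrays under all 12 alternative settings.

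**Figure D3:**
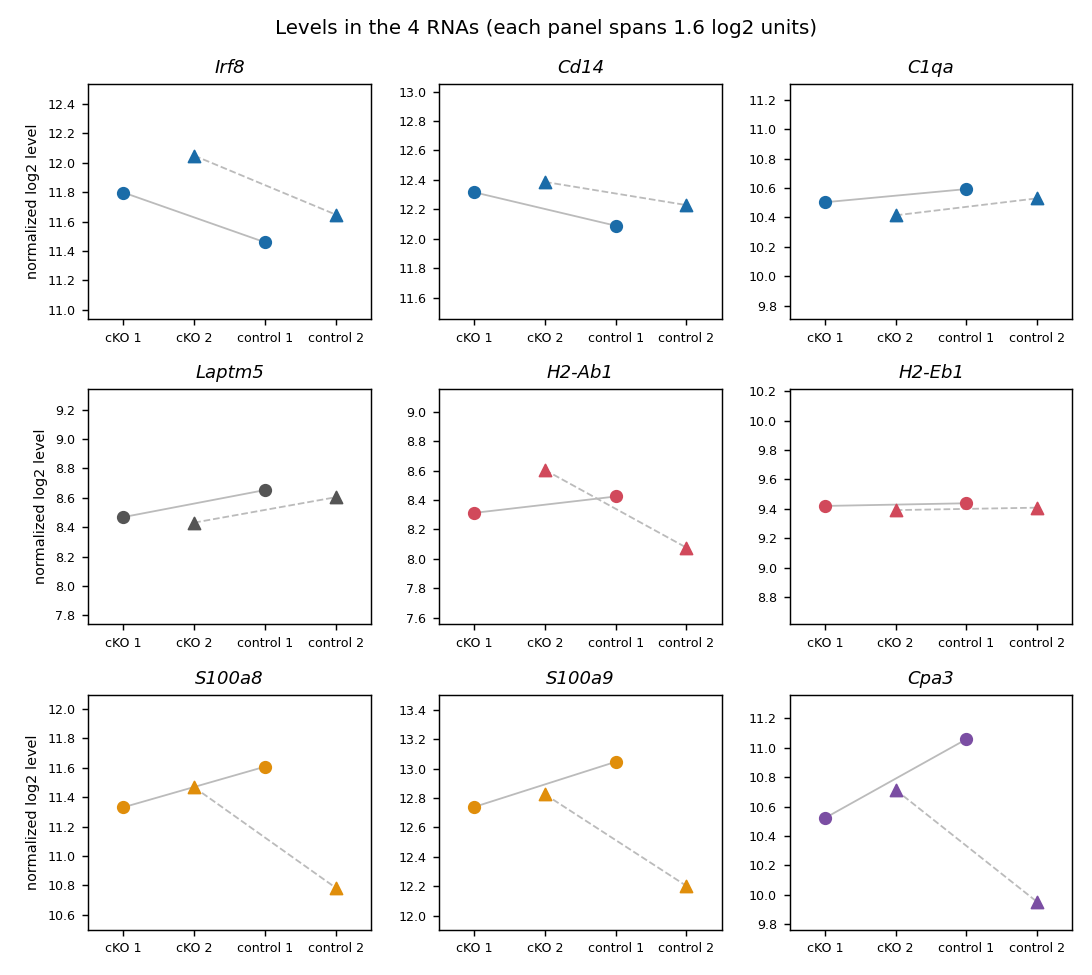
Normalized log2 level of selected genes in the 4 RNAs, with the Rbpj-cKO RNAs left of the controls; circles are array 1, triangles array 2, and lines join the RNAs of an array. For Irf8 both Rbpj-cKO RNAs are above both controls, while for S100a8, S100a9 and Cpa3 control 1 is the highest and control 2 the lowest.

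For the 6 genes of leukocytes at large the median ratios were -0.20 (array 1) and 0.10 (array 2). Ptprc, the CD45 phosphatase of nearly all leukocytes, had log2 levels of 8.27 and 8.36 in Rbpj-cKO RNAs and 8.50 and 8.29 in controls, which overlap, with ratios of -0.23 and 0.08. Cd52, a small surface glycoprotein, gave -0.29 and 0.32, the actin regulator Coro1a -0.21 and 0.13, and the adhesion molecule Cd48 -0.14 and 0.18, with -0.19 and 0.33 from its second probe. The tetraspanin Cd53 stood apart from these, at 0.04 and 0.03. Laptm5, a lysosomal membrane protein of blood cells, had 8.47 and 8.43 in Rbpj-cKO RNAs and 8.65 and 8.60 in controls, so the groups did not overlap, and its ratios nearly coincided at -0.18 and -0.17 (adjusted p = 0.387 in limma). Its second probe gave -0.21 and -0.07.

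Further genes of the same cell types were read from lists that hold no member. For these lists and those below, the shares over all genes were 31.8% higher on both arrays and 29.8% lower on both. The share lower on array 1 and higher on array 2 was 22.3%. Of 29 measured further macrophage and monocyte genes, 9 were higher on both arrays, 7 lower on both, and 11 lower on array 1 and higher on array 2, with medians of -0.10 and 0.07. None was called. At an unadjusted p under 0.05 in limma, 1 was higher and 4 were lower (6.99% and 7.02% of all genes). The largest mean ratios there were those of Lyve1, a hyaluronan receptor of lymphatic vessels and some macrophages (0.56 and 0.48, adjusted p = 0.146 in limma), Cbr2 (-0.46 and -0.45) and the metal transporter Slc11a1 (-0.46 and -0.38). The CSF1R ligands Csf1 and Il34 gave -0.02 and -0.01, and -0.02 and -0.34. Kitl, the ligand on which mast cells depend, gave -0.22 and -0.69 (adjusted p = 0.297 in limma). Of 11 measured class I presentation genes, 8 were lower on array 1 and higher on array 2 and 3 higher on both, among them Psmb8, an immunoproteasome subunit (0.13 and 0.36), and the peptide transporter Tap1 (0.27 and 0.20).

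Of 13 further class II and dendritic cell genes, 5 were higher and 4 lower on both arrays, with Zbtb46, a transcription factor of dendritic cells and endothelium, at -0.52 and -0.34 and H2-Oa at 0.15 and 0.32. Of 10 further T cell genes 3 were higher and 3 lower on both arrays, with the kinase Lck at 0.18 and 0.20, and of 8 further B cell genes 2 were higher and 2 lower, with the adaptor Blnk at 0.25 and 0.20. Of 14 further neutrophil genes 3 were higher on both arrays, 3 lower on both, and 6 lower on array 1 and higher on array 2. Their leading genes did not share a direction: the gelatinase Mmp9 gave -0.61 and -0.51, the granule protease Ctsg 0.41 and 0.46, and Retnlg, a resistin-like protein of neutrophils, -0.13 and 0.83. Of 7 measured mast cell, basophil and eosinophil genes, 4 were lower on array 1 and higher on array 2. These were the mast cell proteases Cma1 (-0.41 and 0.67), Mcpt4 (-0.23 and 0.57) and Tpsab1 (-0.39 and 0.45) and the basophil protease Mcpt8 (-0.62 and 0.10). Of the 4 RNAs, control 2 had the lowest level of the first 3, while Mcpt8 was lowest in Rbpj-cKO 1 (6.85, against 6.88 in control 2). The other 3 had the same sign on both arrays. Hdc, which makes histamine, gave 0.17 and 0.26, the tryptase Tpsb2 0.08 and 0.18, and Kit, the receptor of mast cells and other cells, -0.85 and -0.08. Of these 7, Cma1, Mcpt4, Tpsab1 and Tpsb2 were chosen after their values were seen.

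**Figure D4:**
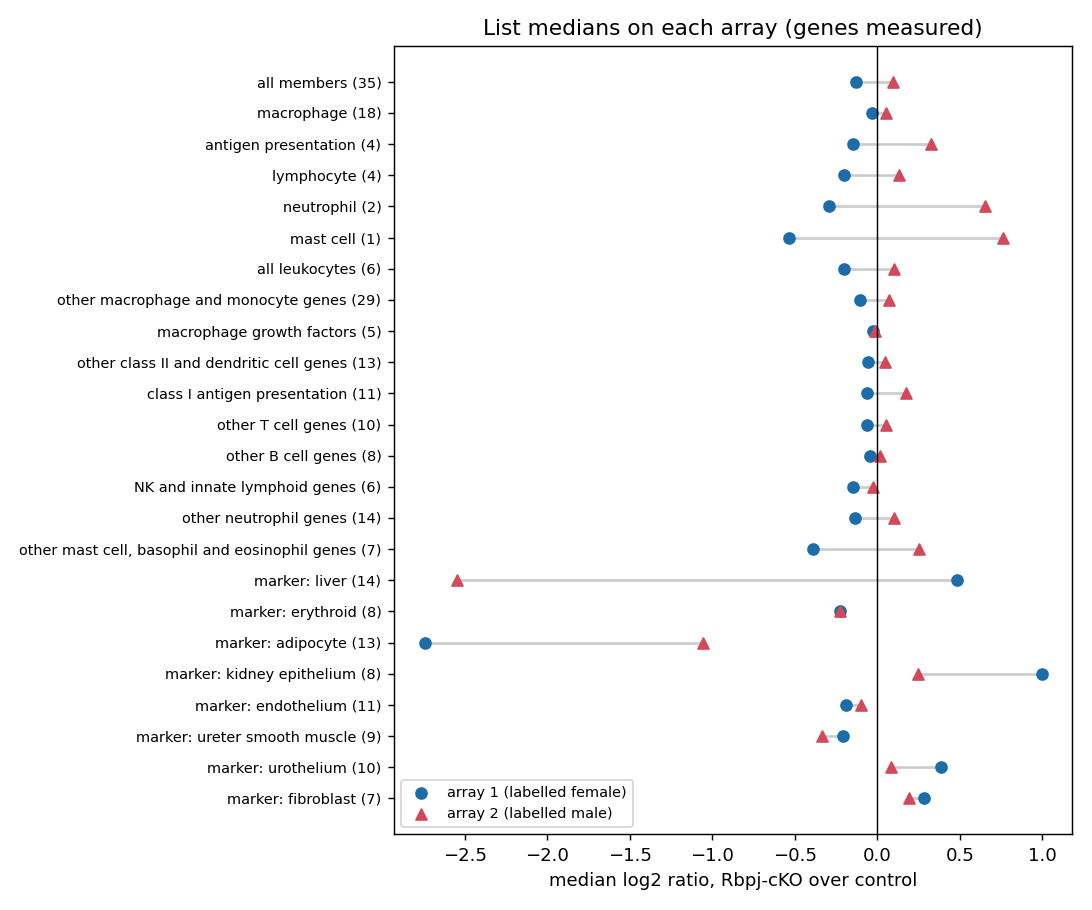
Median log2 ratio of Rbpj-cKO over control on array 1 (circles) and array 2 (triangles) for the member classes, the further gene lists and markers of other cell types. The neutrophil pair (-0.29 and 0.65) and the further mast cell genes (-0.39 and 0.26) are lower on array 1 and higher on array 2, and the liver markers (0.48 and -2.54) go the other way round.

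Promoters were read for motifs of factors that act in these cells, in the 250 bases before each gene's start, on both strands, from RefSeq on GRCm38.p6. Of the 36 members 27 have an entry. Irf8, Coro1a, Fcgr3 and Ptprc have 2 promoters listed each, and only the first listed promoter of a gene was read. The core of the RBPJ site, TGGGAA, is in 7 of 27 (25.9%) and in 21.5% of all 27025 promoters. GAGGAA, a core of the myeloid factor PU.1, is in 15 of 27 (55.6%) and in 23.1% of all. The box CCAAT is in 9 of 27 (33.3%) and in 34.5% of all. Such a match describes the letters in this window and is not evidence of binding. Shown are the promoters of Irf8, which gave the highest mean ratio, of the class II genes H2-Aa and H2-Eb1, with ratios of 0.39 and -0.02 on array 2, and of the neighbours S100a8 and S100a9, whose ratios ran alike. Capitals mark the motifs on either strand, and no motifs overlap. They lie at chr8:120736108-120736357 (Irf8, plus strand), chr17:34287824-34288073 (H2-Aa, minus), chr17:34305617-34305866 (H2-Eb1, plus), chr3:90668821-90669070 (S100a8, plus) and chr3:90695722-90695971 (S100a9, minus).
Irf8: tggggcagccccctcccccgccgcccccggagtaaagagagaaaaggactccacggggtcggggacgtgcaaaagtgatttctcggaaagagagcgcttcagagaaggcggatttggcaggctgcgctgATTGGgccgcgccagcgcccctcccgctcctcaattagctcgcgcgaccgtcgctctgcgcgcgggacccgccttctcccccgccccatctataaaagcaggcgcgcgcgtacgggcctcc
H2-Aa: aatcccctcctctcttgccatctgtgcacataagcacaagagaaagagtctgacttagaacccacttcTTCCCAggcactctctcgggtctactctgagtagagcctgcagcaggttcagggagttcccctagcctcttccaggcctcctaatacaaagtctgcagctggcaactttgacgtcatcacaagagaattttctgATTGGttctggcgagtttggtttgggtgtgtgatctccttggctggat
H2-Eb1: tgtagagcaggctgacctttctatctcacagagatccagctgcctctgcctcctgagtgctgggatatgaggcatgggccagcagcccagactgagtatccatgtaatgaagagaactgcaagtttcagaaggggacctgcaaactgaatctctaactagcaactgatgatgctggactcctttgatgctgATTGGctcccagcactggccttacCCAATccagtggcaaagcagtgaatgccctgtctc
S100a8: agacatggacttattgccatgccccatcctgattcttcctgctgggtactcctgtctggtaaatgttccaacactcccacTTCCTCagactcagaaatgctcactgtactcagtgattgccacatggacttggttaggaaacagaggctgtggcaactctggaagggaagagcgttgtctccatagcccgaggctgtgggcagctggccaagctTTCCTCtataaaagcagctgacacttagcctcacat
S100a9: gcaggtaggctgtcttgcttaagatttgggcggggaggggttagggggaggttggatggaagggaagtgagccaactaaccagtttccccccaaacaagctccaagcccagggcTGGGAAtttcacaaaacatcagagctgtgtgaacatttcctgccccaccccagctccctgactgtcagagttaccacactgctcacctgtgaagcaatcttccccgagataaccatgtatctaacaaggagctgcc
The class II promoters both hold CCAAT, once in H2-Aa and in 2 places in H2-Eb1, and that of H2-Aa also holds the RBPJ core. S100a8 has GAGGAA in 2 places and S100a9 the RBPJ core in 1, so these neighbours share none of the 3 motifs in this window. The Irf8 promoter shown holds CCAAT only, and the other listed one was not read.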

How the data were processed

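RNA of 4 samples was measured on 2 two-colour Agilent arrays. The deposited spot values are fluorescence intensities from Agilent Feature Extraction 10.7.3.1, per the submitters' processing notes and the file headers. Per the file headers, their deposited log ratio is on the log10 scale, red channel over green. The authors also deposited a series table, whose score is read here as a signed fold change since none lay between -1 and 1; its centring and floor are not given in the sources used here, both column medians were 1, and it served only as an alternative.

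The background of the mean signals was corrected with normexp (offset 50, local background medians), followed by loess within arrays to which control spots gave no weight. Outlier-flagged spots were dropped (3.34% and 3.12%), and 0 spots were saturated. The remaining spots gave 1 mean per probe. The filter kept probes with over 50% of spots well above background on each array for 1 genotype or both, and the brightest probe stood for its gene, which gave 21150 genes. Log2 ratios of Rbpj-cKO over control were tested against 0, two-sided, with limma 3.58.1 in R 4.3.3 (1 residual degree of freedom, 4.35 in total) and Benjamini-Hochberg adjustment over all genes. Levels of the 4 RNAs come from loess and quantile normalization of average intensity, which keeps each ratio; the levels of different probes were not compared. Both arrays lay on 1 slide, scanned on 1 day, per the file headers. A test on simulated ratios was run. The members and lists were chosen with earlier results of these data known. Named were all members, Csf1 and Il34, and of each further list the 3 genes with the largest mean change or any gene changed at least 1.5-fold one way on both arrays, of which the leukocyte lists held none.

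The alternatives were normexp offset 16, no background subtraction, median centring, the scanner's log ratio, scaling between arrays, the 4 channels as 2 groups, no or a stricter filter on dim probes, the mean of all probes, trend and robust settings, flagged spots kept, the series table, and each array left out.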

Additional observations from a re-analysis of the deposited data

Results flagged for a closer look

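For 20 members the ratio was of opposite sign on the 2 arrays, each by more than 2 standard errors of the probe's spots, as it was for 17.7% of all genes tested. Such standard errors hold only the scatter within an array. Cd68, Mrc1, Trem2 and Fcgr2b had other signs with the scanner's log ratio and with the series table, and Cd3g with the series table. The difference between the arrays was not tested, and sex label, dye and pair changed with it. Values below are the log2 ratio of Rbpj-cKO over control on array 1 minus that on array 2. It was -1.30 for Cpa3, -0.96 for S100a8 and -0.93 for S100a9. Of class II genes H2-Aa had -0.57 and Cd74 -0.46. Of lymphocyte genes Cd3g had -0.37, Cd3e -0.34 and Cd79b -0.28. Among genes of leukocytes at large it was -0.61 for Cd52, -0.35 for Coro1a, -0.32 for Cd48 and -0.31 for Ptprc. Among macrophage genes it was -0.32 for Ctss, -0.29 for Fcgr2b, -0.24 for both Fcgr3 and Lyz2, -0.08 for both Cd68 and Trem2 and -0.07 for Mrc1, while Csf1r alone was positive, with 0.18. The medians differed in the same way, by -0.94 for the neutrophil pair, -0.47 for class II genes, -0.33 for lymphocyte genes, -0.30 for leukocytes at large, -0.08 for macrophage genes and -0.22 for all measured members.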

How the results depend on the processing

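Under all 12 alternatives that keep both arrays, 0 members were called in limma, and the smallest adjusted p of a member lay between 0.137 (trend and robust settings, which called 95 genes) and 0.581 (median centring). The count of members lower on array 1 and higher on array 2, chosen after the data were seen, lay between 18 (series table, where 14.4% of all genes did so) and 24. Under both the series table and the scanner's log ratio, members higher on both arrays were 9 and members lower on both 4; the cause was not tested. With 1 array left, members higher ranged between 5 and 26 and members lower between 9 and 30, and the medians had opposite signs on the arrays. They ran from -0.13 to 0.09 for all members, -0.03 to 0.05 for macrophage, -0.15 to 0.32 for class II, -0.20 to 0.13 for lymphocyte, -0.29 to 0.65 for neutrophil and -0.20 to 0.10 for leukocyte genes. With array 1 left out, 10 of 35 members had the sign opposite to their mean (values between -0.03 and 0.16), and with array 2 left out 15 did (between -0.54 and 0.07). With both arrays kept, the mean ratio changed sign for 12 of the values recomputed. With median centring these were Cd3g (0.0133), Cd52 (-0.0035), Cd68 (-0.0137) and Mrc1 (-0.011). With the scanner's log ratio they were H2-Eb1 (0.0074) and Lyz2 (0.0073), and with the mean of all probes Cd68 (-0.0114). With the series table they were Cd79b (0.0341), Coro1a (0.0021), Csf1r (0.0159), H2-Eb1 (0.029) and Lyz2 (0.0339). The array ratio pairs the RNAs that share a number; the fit of the 4 channels as 2 groups with no replicate block called 0 genes and 0 members (smallest adjusted p of a member 0.383).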
